A study of Mus musculus with 28 samples.

Results

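The step of wild type (WT) reprogramming cells between day 2 and day 4 was followed in 4 poly(A) RNA-seq libraries, 2 of WT d4 and 2 of WT d2, out of 28 libraries in 14 groups. Samples were chosen by genotype and day, and all genes of the deposited count table were taken: 37620 gene IDs, of which 16932 had enough counts to be tested. The start cells were mouse embryonic fibroblasts (MEFs), grown in DMEM with serum, and OKSM, the set Oct4, Klf4, Sox2 and Myc, was used to turn them into induced pluripotent stem cells (iPSCs). WT d4 and WT d2 cells are both labelled as reprogramming intermediates and shared the medium, named AGi in the labels. Library names give H3_3 for the WT libraries; the labels do not say whether those cells carry an added histone gene. Also used were WT d6 (2 libraries) and K36M d4 and d2 (2 libraries each), OKSM cells in the same medium in which K36M stands for a lysine-to-methionine change of histone H3. The d0, d8, iPSC and noOKSM (no OKSM) groups of both genotypes and K36M d6 entered the fit that sets the spread behind the p-values. Of these, the d0, d8 and K36M d6 libraries are also drawn in 1 figure. How OKSM was delivered, whether a line was 1 clone and whether replicates were separate cultures are not stated in the labels, so p-values measure the spread between libraries, which may be technical.

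In reprogramming, fibroblasts lose contractile and matrix genes, gain epithelial genes in a mesenchymal-to-epithelial transition, and only later switch on their own pluripotency network. E-cadherin (Cdh1) is the junction protein most used to mark that transition. Cell division, p53 and the Cdk inhibitors of the Cdkn2a locus are known to set how many cells complete the process, and reprogramming cultures also hold fibroblasts that leave the path. Bulk RNA cannot tell fewer cells of a type from less RNA per cell.

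Library totals were 18585443 and 30882393 counts at WT d4 and 24273218 and 25698814 counts at WT d2, within a range of 17507521 to 35622279 over the series. The WT d4 replicates stood further apart than the WT d2 replicates, with a median absolute log2 difference of 0.136 at WT d4 and 0.0515 at WT d2 over genes of at least 5 CPM (counts scaled to a common library size). No pair of replicates agreed within counting noise. The K36M d6 replicates, which are part of the shared fit, stood furthest apart. Of their genes of at least 5 CPM, 6.4% were more than 2-fold apart, against at most 0.219% in any other group. Strand and multiple-match settings of the counting are not given, so the values of genes with close copies or antisense partners (the Ly6 and Ifitm families, keratins, histones) are uncertain.

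Between WT d2 and WT d4, 5460 of 16932 genes changed, which is 32.2% of the genes tested (edgeR's quasi-likelihood test, adjusted p below 0.05). Of these, 2884 (17.0%) rose and 2576 (15.2%) fell at d4, and the median log2 change of all tested genes was 0. Large changes were mostly rises: 1169 genes (6.90%) were at least 2-fold higher at d4 and 565 (3.34%) at least 2-fold lower. Leaving out a single WT d2 or d4 library lowered the count to between 3821 and 4310.

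The steepest rises among genes with a mean of at least 5 CPM were secreted, surface and matrix genes of mixed kinds. Wfdc2, which codes for a secreted protein of epithelia, had 22.8 and 17.1 CPM at WT d4, against 0.204 and 0.193 CPM at WT d2, a log2 fold change of 6.60 ± 0.35 (SE). Cdh1, on chromosome 8 from 109127251 to 109194146 of mm9 on the plus strand, had 23.2 and 19.9 CPM at WT d4, against 0.408 and 0.424 CPM at WT d2. That was a 51.0-fold rise, log2 5.67 ± 0.28 (edgeR adjusted p = 5.29e-13). In neither gene did the d4 and d2 libraries overlap, but the rule that chose the steepest changes required this. Among all tested genes, 66.9% had no overlap between the 2 days, and of the 5460 called genes 5456 had none. Lack of overlap therefore adds little for any called gene named below. Ly6a, the surface protein known as Sca-1, was the most abundant of those named here at WT d4, with 506 and 436 CPM at WT d4, against 31.9 and 32.4 CPM at WT d2 (log2 3.87). Ly6c1 of the same family rose by 4.26 on the log2 scale. Prelp, a leucine-rich matrix proteoglycan, had 53.3 and 56.8 CPM at WT d4, against 2.41 and 2.20 CPM at WT d2 (log2 4.58 ± 0.15, edgeR adjusted p = 1.89e-15). Its relative Fmod, fibromodulin, rose by 4.12 on the same scale. Cp, the copper carrier ceruloplasmin, rose by 4.90. Others were Galntl2 (6.16), the peptidase gene Ecel1 (5.75), the hormone gene Trh (5.65), Ifitm1 (5.01), the adhesion gene Nfasc (4.49) and Tmem176a (4.04), all as log2 fold changes with d4 libraries above both d2 libraries, as the rule required.

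The 14 steepest falls were smaller and were of mixed kinds. Slc16a3, on chromosome 11 from 120809794 to 120822182 of mm9, codes for a lactate exporter and had 0.955 and 1.05 CPM at WT d4, against 21.3 and 22.4 CPM at WT d2. It was 21.5-fold lower at d4 (log2 -4.43 ± 0.24, edgeR adjusted p = 2.50e-12). Postn, the matrix protein periostin, had 2.97 and 2.82 CPM at WT d4, against 41.4 and 38.2 CPM at WT d2, which is 13.8-fold lower at d4. The d4 and d2 libraries of both genes lay apart, as the rule that chose the steepest falls required. Next by log2 fold change came the glypican Gpc3 (-2.95), the glycosyltransferase B3gnt5 (-2.81), Mum1l1 (-2.81), the matrix glycoprotein Emilin2 (-2.71), the cGMP-dependent kinase Prkg2 (-2.68), the smooth muscle myosin Myh11 (-2.60) and the lipase Lipg (-2.48). BMP pathway genes were among them, with the receptor Bmpr1b at -2.40 and the binding protein Bmper at -2.34. Cyp26b1, which degrades retinoic acid, stood at -2.32, the glycosyltransferase Wbscr17 at -2.25 and the contractile gene Cnn1 at -2.24.

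**Figure D1:**
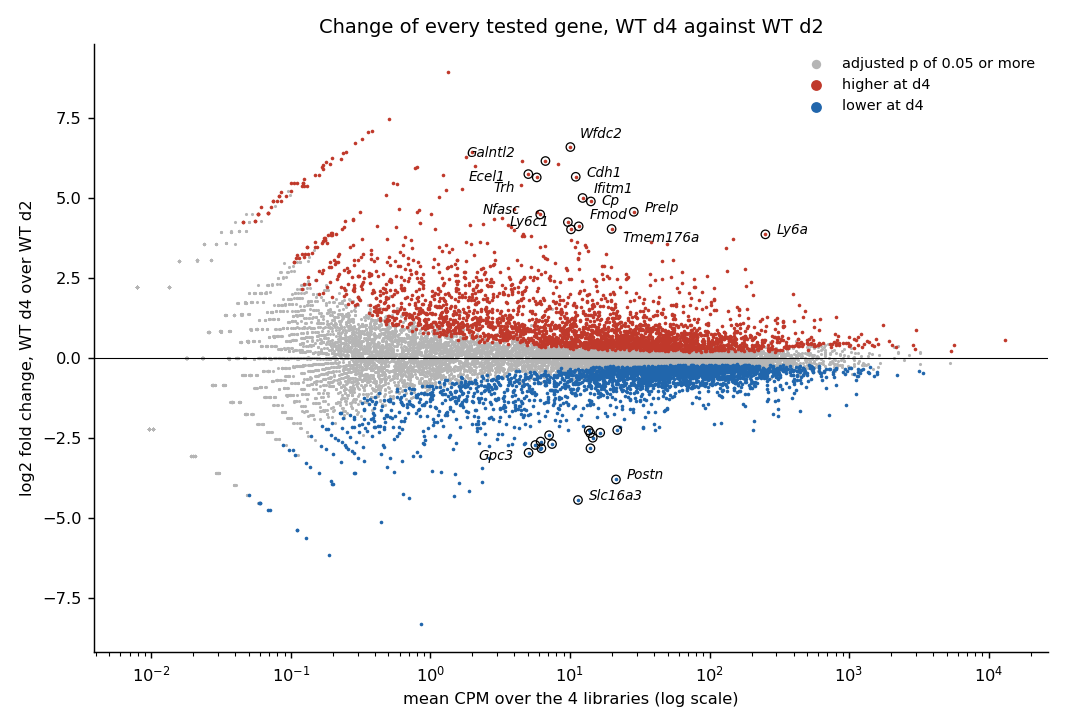
Log2 fold change of WT d4 over WT d2 (vertical axis) against mean CPM over the 4 libraries (horizontal log axis), 1 point for each of 16932 tested genes, red where higher and blue where lower at d4 by edgeR. Circles mark the 28 steepest changes of at least 5 CPM, from Wfdc2 at 6.60 to Slc16a3 at -4.43, and the red points reach further from 0 than the blue ones at most levels.

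In 31 gene lists the direction of change differed sharply by function. A member is said to have risen or fallen only if it passed the test over all 16932 genes, and counts are to be read against the 17.0% and 15.2% of all genes. The lists were chosen with earlier results of these data known, so a share above these is a description and not a test of a list. 

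**Figure D2:**
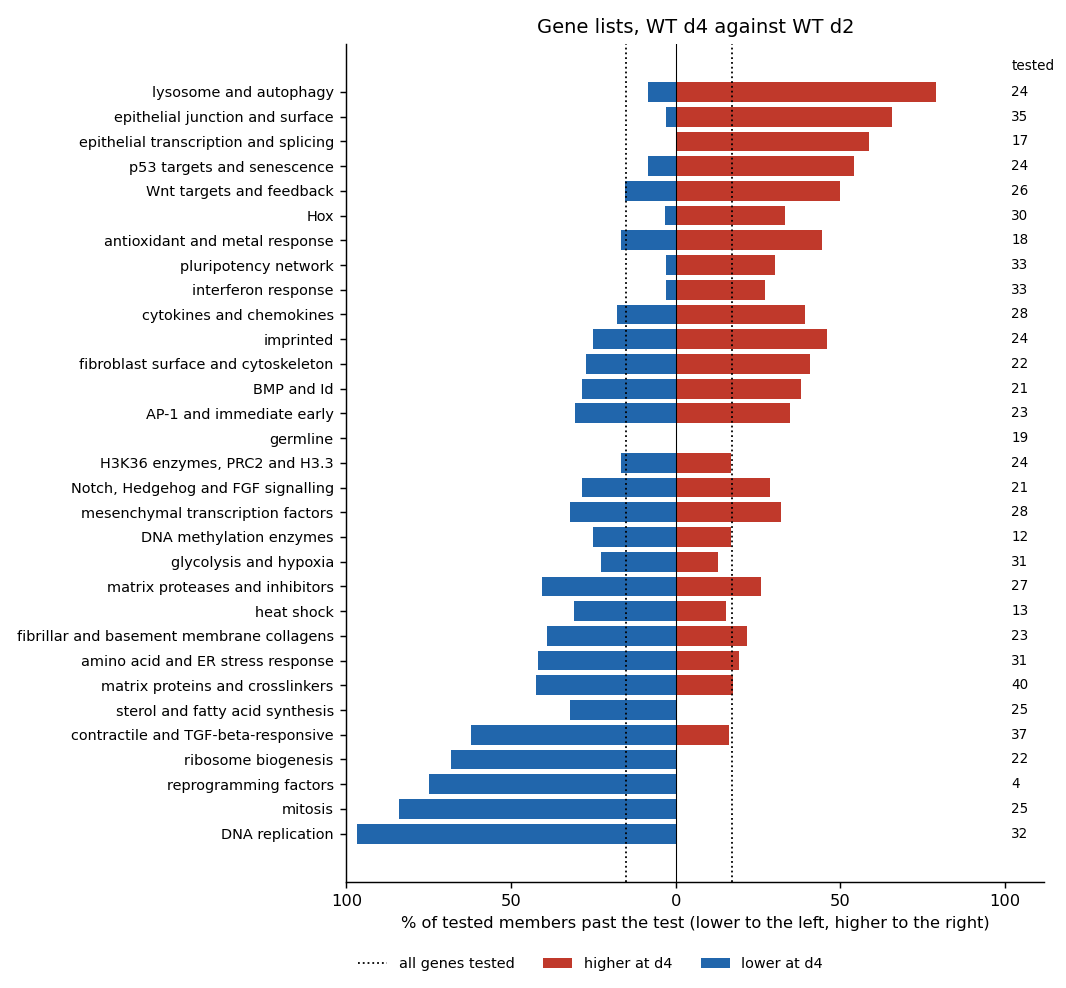
Share of each list's tested members that were higher at WT d4 (red, to the right) or lower (blue, to the left), with the number tested beside each list and dotted lines at the 17.0% and 15.2% of all genes. DNA replication, with 31 of 32 members lower, lies at the bottom, and lysosome and autophagy, with 19 of 24 higher, at the top.

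Genes of cell division fell nearly as a block. Of 32 DNA replication genes, 31 fell and 0 rose, with a median log2 change of -0.64, while the median of all genes was 0. Fewer of these falls passed the test without WT d4 replicate 2. The largest falls were in Ccne2, a cyclin of the entry into S phase, and Rrm2, a subunit of the enzyme that makes deoxynucleotides. Rrm2 had 242 and 224 CPM at WT d4, against 543 and 548 CPM at WT d2 (log2 -1.23 ± 0.08, edgeR adjusted p = 5.58e-11). Ccne2 had 24.9 and 21.7 CPM at WT d4, against 56.5 and 53.5 CPM at WT d2 (log2 -1.24). The d4 libraries of both were below the d2 libraries by a wide gap. Subunits of the MCM helicase, which unwinds DNA at forks, fell by similar amounts, from -0.52 in Mcm7 to -0.82 in Mcm4. The assembly factors that place histones on new DNA, Chaf1a (-0.91) and Chaf1b (-1.02), and the maintenance methylation genes Uhrf1 (-0.85) and Dnmt1 (-0.63), fell with them. The summed level of the list was 2861 and 2847 CPM at WT d4, against 4675 and 4699 CPM at WT d2. 

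Of 25 mitosis genes, 21 fell and 0 rose (median -0.66), and fewer of these falls passed without WT d4 replicate 1. Cenpe, a kinetochore motor, had 121 and 147 CPM at WT d4, against 249.9 and 266 CPM at WT d2 (log2 -0.94). The kinase Plk1 (-0.88), the spindle factor Tpx2 (-0.85), the midzone protein Prc1 (-0.85) and the transcription factor Foxm1 (-0.84), which drives many of these genes, changed alike. Mki67, the proliferation marker, had 280.4 and 380.0 CPM at WT d4, against 527 and 520.4 CPM at WT d2, so its d4 replicates differed from each other more than those of Plk1. Its log2 change was -0.66, and without WT d4 replicate 1 it was -0.45 and did not pass (edgeR adjusted p = 0.0519). Ribosome biogenesis, the making of ribosomes in the nucleolus, moved the same way but less: 15 of 22 genes fell and 0 rose, with a median of -0.36, and Rrp12 (-0.70) and Nolc1 (-0.58) fell most.

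**Figure D3:**
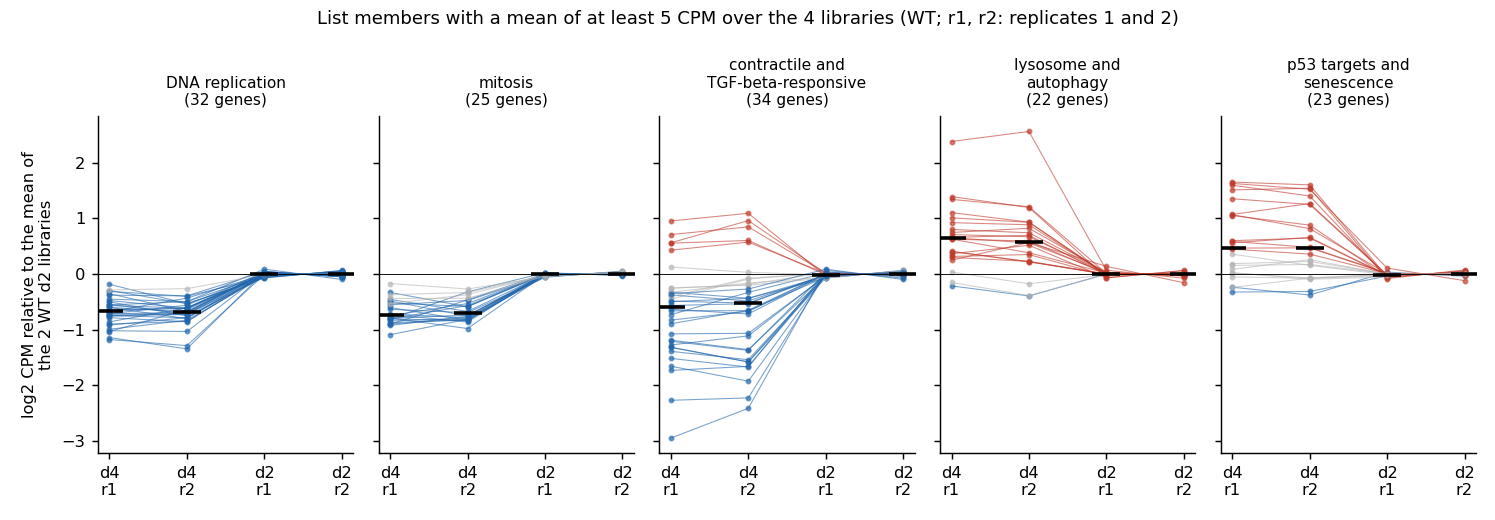
Log2 CPM of each list member in the 4 WT libraries (d4 replicates 1 and 2, then d2 replicates 1 and 2), relative to its mean over the 2 WT d2 libraries, for members with a mean of at least 5 CPM. Lines are genes, red where higher and blue where lower at d4, and black bars are medians; replication and mitosis genes lie below 0 in both d4 libraries, and most lysosome genes above 0.

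E2F factors, which bind promoters of replication genes, are usually described with the motifs TTTCCCGC and TTTGGCGC. Promoter windows of 300 bases, from RefSeq on GRCm38.p6, were found for 26 of the 32 DNA replication genes (33 promoters) and searched on both strands; the motifs share no position in the windows shown. TTTCCCGC was in 5 of these promoters (15.2%), against 1.07% of all 32851 promoters, and TTTGGCGC was in 6 (18.2%), against 0.514%. Of 23 promoters found for 21 of the 25 mitosis genes, which fell too, 0 held TTTCCCGC and 0 held TTTGGCGC. The 2 replication gene promoters below are shown because their genes fell and they hold 2 matches each, in capitals: Mcm6 at chr1:128359656-128359955 and Mcm3 at chr1:20820263-20820562, both on the minus strand. A match is a description of the letters only.
Mcm6: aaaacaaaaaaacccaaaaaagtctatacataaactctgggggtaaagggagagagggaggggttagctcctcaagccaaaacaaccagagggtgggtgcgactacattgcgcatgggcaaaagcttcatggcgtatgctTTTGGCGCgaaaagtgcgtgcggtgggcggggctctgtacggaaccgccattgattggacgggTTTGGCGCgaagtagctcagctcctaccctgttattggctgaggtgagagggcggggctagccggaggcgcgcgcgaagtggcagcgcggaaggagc
Mcm3: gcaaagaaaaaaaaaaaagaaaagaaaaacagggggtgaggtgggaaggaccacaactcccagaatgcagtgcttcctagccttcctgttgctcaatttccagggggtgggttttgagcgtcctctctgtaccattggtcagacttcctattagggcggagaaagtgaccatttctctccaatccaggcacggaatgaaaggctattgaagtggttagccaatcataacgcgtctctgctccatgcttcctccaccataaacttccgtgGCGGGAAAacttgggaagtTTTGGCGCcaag

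Mcm6 had 195 and 198 CPM at WT d4, against 329 and 309 CPM at WT d2 (log2 -0.70 ± 0.07). Mcm3 had 116 and 118 CPM at WT d4, against 180.5 and 179.9 CPM at WT d2 (log2 -0.63 ± 0.09), and for both genes the days did not overlap.

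Epithelial genes moved the opposite way. Of 35 epithelial junction and surface genes, 23 rose and 1, the desmosomal cadherin Dsc2 (-0.83), fell, with a median log2 change of 1.48. Epcam, an epithelial adhesion protein, had 8.65 and 8.21 CPM at WT d4, against 0.531 and 0.656 CPM at WT d2 (log2 3.81 ± 0.18, edgeR adjusted p = 3.88e-13). The keratin Krt18 of simple epithelia had 22.8 and 18.4 CPM at WT d4, against 2.33 and 2.43 CPM at WT d2 (log2 3.10), and its partner Krt8 rose by 2.52. Of the tight junction genes, Ocln rose by 4.37 and Lsr by 3.61 on the log2 scale, and Cldn3 (1.48) and Cldn4 (2.95) by less. The surface protease inhibitors Spint1 (4.16) and Spint2 (2.48) and the desmosome gene Dsp (1.67) rose too. Some members were near the limit of detection: 58 counts over both WT d4 libraries and 2 over both WT d2 libraries were found for Marveld3, a ratio of 29.0 with a 95% exact counting interval of 7.68 to 245. Ap1m2, a sorting adaptor of epithelia, had 17 counts at WT d4 and 0 at WT d2, so it was at least 5.67-fold higher with a floor of 3 counts over the group. Crb3, with 11 counts at WT d4 and 2 at WT d2, lost its call when either WT d4 replicate or WT d2 replicate 2 was left out, with DESeq2 and with the WT libraries alone, and the Dsc2 fall was not called without WT d4 replicate 1. The junction plaque gene Jup (0.80) rose by less.

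Of 17 epithelial transcription and splicing genes, 10 rose and 0 fell (median 1.45). Esrp1, which directs epithelial splicing, had 3.77 and 4.63 CPM at WT d4, against 0.327 and 0.347 CPM at WT d2 (log2 3.64). Ehf, an Ets factor, had 29.7 and 30.2 CPM at WT d4, against 4.17 and 3.90 CPM at WT d2 (log2 2.89 ± 0.31). Grhl3, a grainyhead factor, rose by 2.03 on the log2 scale, with both d4 libraries above both d2 libraries. Ovol2 and Grhl2 rested on few reads: Ovol2 had 19 counts at WT d4 and 1 at WT d2 (ratio 19.0, counting interval 3.02 to 790), and Grhl2 had 11 counts at WT d4 and 2 at WT d2. The Grhl2 call was lost when any of the 4 libraries was left out and with DESeq2.

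The E-box CAGGTG, the letters to which the Snai and Zeb repressors of epithelial genes are known to bind, was searched on both strands of the same RefSeq windows. Promoters were matched for 23 of the 35 epithelial junction and surface genes, and 23 of their 29 promoters (79.3%) held it, against 20.2% of all promoters. Among the promoters of the members that rose, 15 of 18 (83.3%) held it. The 3 shown here, with CAGGTG or its reverse complement CACCTG in capitals, belong to genes that rose and hold more than 1 match each: Lsr at chr7:30973420-30973719, Spint2 at chr7:29281928-29282227 and Ocln at chr13:100552449-100552748, all on the minus strand of GRCm38.p6.
Lsr: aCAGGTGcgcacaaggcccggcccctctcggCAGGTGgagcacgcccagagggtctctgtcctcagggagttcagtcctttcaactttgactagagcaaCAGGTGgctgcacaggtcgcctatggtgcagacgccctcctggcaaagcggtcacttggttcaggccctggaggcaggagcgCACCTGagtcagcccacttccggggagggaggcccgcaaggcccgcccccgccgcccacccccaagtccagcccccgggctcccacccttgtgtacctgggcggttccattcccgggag
Spint2: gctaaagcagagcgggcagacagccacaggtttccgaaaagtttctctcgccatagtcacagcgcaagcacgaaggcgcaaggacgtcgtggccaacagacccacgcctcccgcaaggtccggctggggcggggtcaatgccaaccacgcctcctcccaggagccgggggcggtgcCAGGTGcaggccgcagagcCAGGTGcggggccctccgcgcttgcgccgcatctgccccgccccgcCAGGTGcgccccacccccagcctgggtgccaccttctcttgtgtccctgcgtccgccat
Ocln: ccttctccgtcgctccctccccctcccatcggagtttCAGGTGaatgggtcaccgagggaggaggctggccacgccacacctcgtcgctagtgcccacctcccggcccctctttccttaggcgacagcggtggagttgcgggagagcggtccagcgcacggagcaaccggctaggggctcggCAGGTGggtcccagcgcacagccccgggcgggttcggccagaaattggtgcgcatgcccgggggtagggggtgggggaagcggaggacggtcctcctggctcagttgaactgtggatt

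Lsr had 4.99 and 4.41 CPM at WT d4, against 0.368 and 0.386 CPM at WT d2. Spint2 had 19.0 and 15.5 CPM at WT d4, against 3.27 and 2.89 CPM at WT d2. Ocln had 5.62 and 5.27 CPM at WT d4, against 0.286 and 0.231 CPM at WT d2. In all 3 genes both d4 libraries were above both d2 libraries, a separation that nearly all called genes shared. Among the repressors, Snai2 fell by 1.00 and Zeb2 by 0.43 on the log2 scale, and Snai1 had 7.48 and 7.07 CPM at WT d4, against 8.29 and 8.83 CPM at WT d2, without passing the test (edgeR adjusted p = 0.43). The Zeb2 call did not hold without WT d4 replicate 1 or either WT d2 replicate. Zeb1, also a listed repressor, is not given here.

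The counts of the 4 factors hold reads of any introduced copy as well as of the cells' own genes. Pou5f1 (Oct4) had 132 and 195 CPM at WT d4, against 288 and 266 CPM at WT d2 (log2 -0.76), Sox2 changed by -0.65 and Klf4 by -0.63. Myc had 242 and 261 CPM at WT d4, against 347 and 351 CPM at WT d2, and did not pass in the fit to all libraries (log2 -0.47, edgeR adjusted p = 0.0769), but passed with the WT libraries alone, with the 4 libraries alone and with no filter. Of the 4, 3 thus fell, but only 1 without WT d4 replicate 1, where Pou5f1 (-0.50) and Sox2 (-0.47) did not pass. Of 33 pluripotency genes, 10 rose and 1, the dioxygenase gene Tet1 (-0.79), fell, with a median of 0.68. Sall4, a zinc finger factor of the pluripotency network, had 180 counts at WT d4 and 2 at WT d2, a ratio of 90.1 (counting interval 24.6 to 749). Fgf4, a growth factor gene driven by Oct4 and Sox2, had 31.6 and 31.4 CPM at WT d4, against 9.84 and 10.9 CPM at WT d2 (log2 1.60 ± 0.11, edgeR adjusted p = 1.53e-09). Fbxo15, one of the earliest reporter genes of reprogramming, rose by 2.60 on the same scale. Lin28a had 12 counts at WT d4 and 0 at WT d2, at least 4.00-fold higher, a call lost without WT d4 replicate 2. Nanog, a core factor, had 0.265 and 0.254 CPM at WT d4, against 0.163 and 0.154 CPM at WT d2, and did not pass (edgeR adjusted p = 0.43).

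Contractile genes and matrix genes fell in larger numbers than they rose. In the list of contractile genes and TGF-beta targets, 23 of 37 members fell and 6 rose (median -0.51), and their summed level was 8948 and 9750 CPM at WT d4, against 14630 and 14730 CPM at WT d2. Acta2, the smooth muscle actin of activated fibroblasts, had 530 and 477 CPM at WT d4, against 1353 and 1419 CPM at WT d2 (log2 -1.46 ± 0.14, edgeR adjusted p = 4.27e-08). Tagln (-1.78), Smtn (-1.69) and Tpm2 (-1.44), all of actin filaments, and the myosin light chain gene Myl9 (-1.44) moved with it. Feedback genes induced by TGF-beta also fell, among them Pmepa1 (-1.59), Skil (-1.19) and Smad7 (-1.07), as did the secreted target Ctgf (-1.27). The 6 members that rose include parts of the pathway's own machinery, the ligands Tgfb2 (1.03) and Tgfb3 (0.58), the receptor Tgfbr2 (0.78), the binder Ltbp2 (0.78) and the transducer Smad3 (0.51). The ligand Tgfb1 fell (-0.66).

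The serum response factor gene Srf, whose product binds the CArG box of many contractile genes, fell by 0.31 on the log2 scale, with 69.6 and 73.8 CPM at WT d4, against 94.5 and 83.1 CPM at WT d2. A CArG box was found on either strand in 4 of 30 promoters (13.3%) of the contractile list, for 27 of its 37 genes, against 1.63% of all promoters. Among promoters of the members that fell, 3 of 17 held it. The AP-1 and immediate early list, which moved in both directions, held it in 5 of 22 promoters (22.7%), and the collagen list in 0 of 21. Srf's own promoter, at chr17:46556113-46556412 on the minus strand of GRCm38.p6, is shown because it holds 2 CArG boxes, in capitals.
Srf: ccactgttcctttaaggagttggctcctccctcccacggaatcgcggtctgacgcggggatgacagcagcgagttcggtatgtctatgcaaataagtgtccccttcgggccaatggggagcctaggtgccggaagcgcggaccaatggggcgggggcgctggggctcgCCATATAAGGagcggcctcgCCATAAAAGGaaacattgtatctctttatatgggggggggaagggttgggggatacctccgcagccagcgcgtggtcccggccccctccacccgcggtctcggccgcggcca

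Of 23 collagens, 9 fell and 5 rose (median -0.31). Col6a3 fell most, with 70.0 and 100.9 CPM at WT d4, against 349 and 319 CPM at WT d2 (log2 -1.96), while Col6a1 (0.89) and Col6a2 (0.73), chains of the same trimer, rose. Col3a1 (-1.59) and Col1a2 (-1.12) of the fibrillar collagens fell, and Col1a1 had 242 and 312 CPM at WT d4, against 360.2 and 359 CPM at WT d2, without passing (log2 -0.38). Col18a1 (1.28) and Col15a1 (1.26), of basement membranes, rose. Of 40 matrix proteins and crosslinkers, 17 fell and 7 rose (median -0.38): Tnc (-2.24), Fbln2 (-1.80) and the crosslinking enzymes Lox (-1.75) and Loxl2 (-1.56) fell, while Prelp, Fmod, Mgp (3.73), Lama5 (2.50) and Thbs2 (1.34) rose. Mgp, an inhibitor of calcification, had 319 and 231 CPM at WT d4, against 20.3 and 21.0 CPM at WT d2. Mfap4, of elastic fibres, had 0 counts at WT d4 and 87 at WT d2, at least 29-fold lower. Of 27 matrix proteases and inhibitors, 11 fell and 7 rose, and 7 fell without WT d4 replicate 1. Adam12 (-1.70) and Adam19 (-1.28) were lower, and Mmp19 (2.94), Adamts5 (1.35) and Htra1 (1.05) higher.

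The transcription factors and surface proteins of fibroblasts split. Of 28 mesenchymal transcription factors, 9 rose and 9 fell (median 0.12). Foxd1, a forkhead factor of stroma, had 33.4 and 32.5 CPM at WT d4, against 8.01 and 8.41 CPM at WT d2 (log2 2.00 ± 0.17, edgeR adjusted p = 5.16e-09). Prrx2 (1.07), Cebpb (1.26), Msx1 (1.62) and Twist1 (0.47) rose as well, the last not without WT d2 replicate 2 (0.42). Twist2 (-1.27), Cebpa (-1.71), Foxc2 (-2.07), Osr1 (-2.69) and Runx2 (-0.68) fell, so relatives such as Twist1 and Twist2 or Foxc1 (0.84) and Foxc2 went in opposite directions. Prrx1, a regulator of limb mesenchyme, had 368 and 391 CPM at WT d4, against 354 and 359 CPM at WT d2, and did not pass (edgeR adjusted p = 0.68). Of 22 fibroblast surface and cytoskeleton genes, 9 rose and 6 fell (median 0.12). Cd34, a sialomucin of stromal progenitors, had 63.0 and 62.0 CPM at WT d4, against 13.2 and 12.5 CPM at WT d2 (log2 2.28), and Vim (0.43) and Pdgfrb (1.05) rose too. Thy1, a surface marker lost early in reprogramming, fell by 0.58, as did the cadherin Cdh11 (-0.91) and Ncam1 (-0.98).

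In the fit to all libraries, genes of the lysosome were the list with the largest share of rises. Fewer of these rises passed the test when WT d2 replicate 1 was left out. Of 24 lysosome and autophagy genes, 19 rose and 2 fell (median 0.56), the falls being Ctsl (-0.30) and the low-count Ctss. Both falls were lost without WT d4 replicate 2 or WT d2 replicate 1, and 1 was left without either other library. Their summed level was 6329 and 5956 CPM at WT d4, against 4145 and 4098 CPM at WT d2. Gpnmb, a glycoprotein of lysosomes and melanosomes, had 40.2 and 45.6 CPM at WT d4, against 8.09 and 7.33 CPM at WT d2 (log2 2.48 ± 0.14). Ctsz, a cathepsin protease, had 698 and 637 CPM at WT d4, against 278 and 273 CPM at WT d2 (log2 1.28 ± 0.09, edgeR adjusted p = 3.36e-10). The hydrolase gene Gla (0.91), the autophagy receptor Sqstm1 (0.97) and Tfeb (1.02), the factor that drives lysosome genes, rose in the same way. Lamp1, an abundant membrane protein, had 564 and 538 CPM at WT d4, against 458 and 459 CPM at WT d2 (log2 0.27). The E-box CACGTG, which Tfeb and its relatives bind, was in 5 of 24 promoters (20.8%) found for 20 of the 25 listed genes, against 7.15% of all promoters. That share was not particular to this list: it was 54.5% for germline genes and 26.9% for p53 target and senescence genes. For interferon response genes it was 0 of 35 promoters. Lamp1's promoter, at chr8:13158911-13159210 on the plus strand of GRCm38.p6, is shown because it holds 4 copies, in capitals.
Lamp1: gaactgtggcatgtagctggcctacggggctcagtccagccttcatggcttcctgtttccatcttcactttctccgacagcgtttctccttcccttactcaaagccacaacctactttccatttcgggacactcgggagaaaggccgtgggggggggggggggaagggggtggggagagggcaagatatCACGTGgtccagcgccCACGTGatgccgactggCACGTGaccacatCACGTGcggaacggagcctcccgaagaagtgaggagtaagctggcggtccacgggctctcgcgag

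Of 24 p53 target and senescence genes, 13 rose and 2, Trp53 itself (-0.30) and its inhibitor Mdm2 (-0.32), fell (median 0.50); 1 of these falls was left without WT d4 replicate 2 or either WT d2 replicate. Cdkn2a, a locus of cell cycle inhibitors, had 175 and 153 CPM at WT d4, against 55.3 and 60.3 CPM at WT d2 (2.83-fold higher, edgeR adjusted p = 1.99e-08). Its neighbour Cdkn2b rose by 1.63, the antiproliferative gene Btg2 by 1.53, the secreted Gdf15 by 1.58 and the death gene Bbc3 by 1.30. Cdkn1a, the abundant Cdk inhibitor p21, had 991 and 994 CPM at WT d4, against 722 and 711 CPM at WT d2, a rise of 0.47 with no overlap. Of 18 antioxidant and metal response genes, 8 rose and 3 fell; the glutathione transferase Gsta4 (1.49) and metallothioneins Mt1 (1.03) and Mt2 (1.21) rose, and the glutathione synthesis gene Gclm (-0.87) fell. Of 13 heat shock genes, 2 rose and 4 fell, and 1 rose without WT d2 replicate 2.

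Signalling genes changed in both directions. Of 26 Wnt target and feedback genes, 13 rose and 4 fell (median 0.74). Notum, an enzyme that inactivates Wnt ligands, had 5.89 and 6.60 CPM at WT d4, against 0.286 and 0.309 CPM at WT d2 (log2 4.37 ± 0.28, edgeR adjusted p = 3.83e-11). Other inhibitors rose too, Dkk2 by 3.14, Dkk3 by 2.51, Apcdd1 by 1.78 and Axin2 by 1.03, while the ligands Wnt5a (-1.58) and Wnt2 (-3.52) fell and Wnt4 (1.75) rose. Of 21 BMP and Id genes, 8 rose and 6 fell. Bmp4, a ligand, had 10.1 and 8.69 CPM at WT d4, against 2.25 and 2.12 CPM at WT d2 (log2 2.09), and the targets Id1 (0.58), Id2 (1.66), Id3 (1.14) and Id4 (1.01) all rose. The antagonist Grem1 (1.59) rose and Nog (-0.60), another antagonist, fell. Of 21 Notch, Hedgehog and FGF genes, 6 rose and 6 fell, with 2 falls left without WT d4 replicate 1 and 3 without WT d2 replicate 2; the Notch ligand Dll1 (2.09) rose and the target Hey1 (-0.92) fell. 

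Of 23 AP-1 and immediate early genes, 8 rose and 7 fell. The AP-1 subunits Fosl1 (-1.29) and Jun (-0.63) fell with the early gene Egr1, which had 7.96 and 9.01 CPM at WT d4, against 33.98 and 40.9 CPM at WT d2 (log2 -2.13 ± 0.18). Feedback inhibitors of the MAP kinase path rose, namely Dusp1 (1.21), Dusp6 (1.05) and Spry4 (1.08). Of 28 cytokine and chemokine genes, 11 rose and 5 fell, with 3 falls left without WT d4 replicate 1 and 2 without any other single library. Il34, a ligand for the macrophage growth factor receptor, had 31.7 and 33.6 CPM at WT d4, against 3.96 and 2.86 CPM at WT d2 (log2 3.26 ± 0.15, edgeR adjusted p = 1.90e-13). Il1rn (2.53), Cxcl12 (1.64) and Ccl2 (1.48) rose and Vcam1 (-0.94) fell, and Ccl20, with 47 counts at WT d4 and 0 at WT d2, was at least 15.7-fold higher. Of 33 interferon response genes, 9 rose and 1 fell; the RNA sensor gene Ddx58 rose by 1.49.

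Metabolic lists moved modestly apart from single genes. Of 31 amino acid and ER stress genes, 13 fell and 6 rose (median -0.22). Mthfd2, of mitochondrial one-carbon metabolism, had 42.6 and 39.7 CPM at WT d4, against 108.9 and 108 CPM at WT d2 (log2 -1.40 ± 0.08, edgeR adjusted p = 7.32e-12). The serine synthesis genes Phgdh (-0.78), Psph (-0.69) and Psat1 (-0.59), the next enzyme Shmt2 (-0.73) and the amino acid carrier Slc7a5 (-1.02) fell with it. Of 25 sterol and fatty acid synthesis genes, 8 fell and 0 rose, but 2 fell without WT d4 replicate 1, 4 without WT d2 replicate 1 and 5 without WT d2 replicate 2. With WT d4 replicate 2 left out, 2 rose, as they did with RLE scaling and with DESeq2. Acaca, which makes malonyl-CoA for fatty acid synthesis, had 47.2 and 65.0 CPM at WT d4, against 90.0 and 88.1 CPM at WT d2 (log2 -0.66). Without WT d4 replicate 1 its change did not pass (edgeR adjusted p = 0.0777). Of 31 glycolysis and hypoxia genes, 7 fell and 4 rose: besides Slc16a3, Ldha (-0.49) fell, and Aldoc (3.99), Bnip3 (1.55) and Pdk1 (1.29) rose.

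Chromatin genes changed by small amounts. Of 24 genes of H3K36 enzymes, PRC2 and H3.3, 4 rose and 4 fell, shares near the 17.0% and 15.2% of all genes. Whsc1 (Nsd2), which methylates H3K36, had 101 and 122 CPM at WT d4, against 190.1 and 192 CPM at WT d2 (log2 -0.77), and Ezh2 (-0.52) of PRC2 fell while its relative Ezh1 (0.46) and the cofactor Jarid2 (0.84) rose. H3f3a, an H3.3 gene, had 234 and 211 CPM at WT d4, against 195 and 177 CPM at WT d2, and did not pass (edgeR adjusted p = 0.0745). Of 12 DNA methylation enzymes and partners, 2 rose (Gadd45a by 1.40 and Gadd45b by 0.75) and 3 fell (Uhrf1, Dnmt1 and Tet1, given above). Of 30 Hox genes, 10 rose and 1 fell, and 5 rose without either WT d2 replicate and 6 without WT d4 replicate 1. The fall of Hoxa11 (-1.05) was lost without WT d4 replicate 2 or either WT d2 replicate and with the 4 libraries alone. Hoxd8 had 13.3 and 12.0 CPM at WT d4, against 5.64 and 6.10 CPM at WT d2 (log2 1.11). Of 24 imprinted genes, 11 rose and 6 fell. Peg10 had 289 and 338 CPM at WT d4, against 45.9 and 44.8 CPM at WT d2 (log2 2.79 ± 0.12), and the maternally expressed RNAs H19 (2.20) and Meg3 (1.83) rose, while Igf2 (-2.15) and Dlk1 (-2.37), the paternally expressed neighbours of H19 and Meg3, fell. Of 19 germline genes, 0 rose and 0 fell in edgeR and in each alternative run, DESeq2 among them, with 0 higher and 0 lower at an unadjusted p below 0.05 in edgeR.

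Markers of other cell types were also counted. Macrophage markers summed to between 119 and 129 CPM at WT d4, against 77.0 to 77.5 CPM at WT d2, with 2 of 15 tested higher and 3 lower; Laptm5 and Cd68 made up most of the sum, Lyz1 was at 0, and Lyz2 (-1.44), C1qa (-1.90) and Ctss fell, of which 1 was left without either WT d4 replicate or WT d2 replicate 1. Keratinocyte markers summed to between 385 and 484 CPM at WT d4, against 108 to 113 CPM at WT d2 (6 of 15 higher, 2 lower). This rested on the hemidesmosome and laminin genes Itgb4 (2.37) and Lama3 (3.63), while Krt17 was at 0 and Sfn (-0.83) and Lor (-1.91) fell. Adipocyte markers summed to between 53.9 and 55.0 CPM at WT d4, against 206 to 209 CPM at WT d2 (0 of 6 higher, 2 lower), nearly all Lpl (-2.03), and Plin1, Cidec, Cfd and Lep were at 0. Endothelial markers summed to between 95.4 and 108 CPM at WT d4, against 139 to 142 CPM at WT d2 (0 of 14 higher, 3 lower, of which 1 was left without WT d4 replicate 1 or WT d2 replicate 1). Of skeletal muscle markers 1 of 9 rose and 4 fell, of neuron and glia markers 0 of 17 rose and 4 fell, of trophoblast markers 2 of 12 rose and 0 fell, of primitive endoderm markers 1 of 12 rose and 2 fell, and of cartilage and bone markers 3 of 12 rose and 3 fell, where 1 rose without WT d4 replicate 2 or WT d2 replicate 2. The muscle rise was lost without WT d4 replicate 1 or either WT d2 replicate, the primitive endoderm rise without WT d4 replicate 2 or WT d2 replicate 1, and 1 keratinocyte fall without WT d2 replicate 2. Of 2 blood markers tested, 1 rose, and 7 of 11 were at 0. The share of trophoblast markers that rose (16.7%) was near the 17.0% of all genes. The part of such cells in the changes above was not tested.

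The next step, WT d6 against WT d4, had far fewer calls, although it shares the WT d4 libraries: 613 genes (3.62%) were higher and 178 (1.05%) lower at d6. By a test of the difference of the 2 log2 changes, the d6 step minus the d4 step was positive for 625 genes (3.69%) and negative for 978 (5.78%). The difference keeps its sign, so a gene that fell by d4 and then stopped or turned back can be positive. Without a single WT d4 library the d6 calls numbered 437 or 439, and the step differences 849 or 978. Of 35 epithelial junction genes 26 were higher and 1 lower at d6 than at d4, and of 33 pluripotency genes 15 were higher and 0 lower. Of 32 replication genes 3, and of 25 mitosis genes 5, were lower at d6 than at d4, and 0 of either were higher. Cdh1 had 142 and 117 CPM at WT d6 after 23.2 and 19.9 CPM at WT d4, and Nanog 10.4 and 10.6 CPM at WT d6. Slc16a3 and Postn turned back, to 5.38 and 4.57 CPM and to 9.01 and 9.29 CPM at WT d6, both above their WT d4 libraries (log2 2.29 and 1.66 for d6 over d4). Ly6a, at 566 and 637 CPM at WT d6, did not change past the test (log2 0.35, edgeR adjusted p = 0.14).

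**Figure D4:**
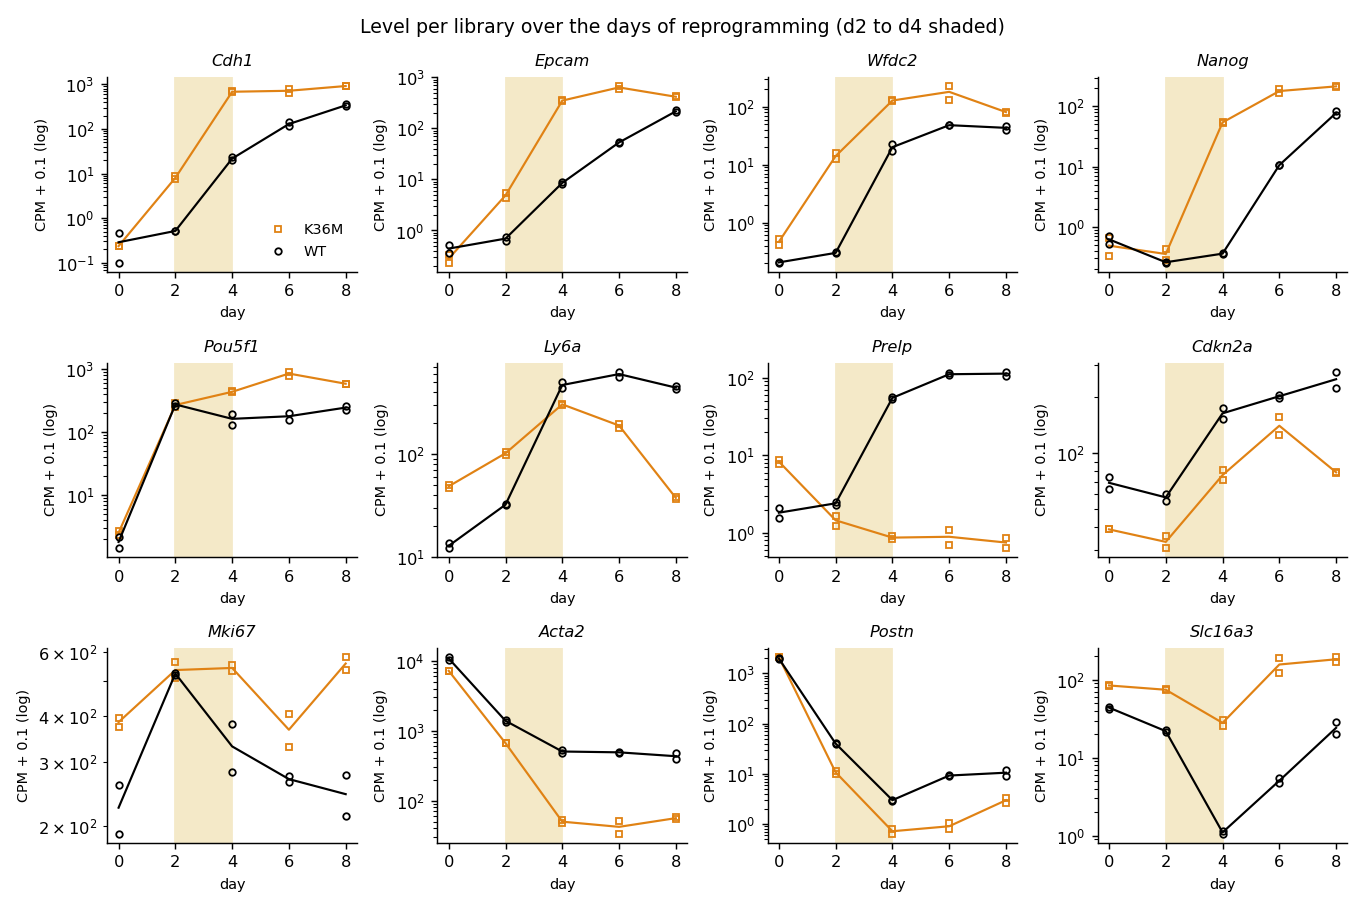
CPM plus 0.1 (vertical log axes) of 12 genes at d0, d2, d4, d6 and d8 in K36M (orange squares) and WT (black circles), 1 symbol per library and lines through the means, with d2 to d4 shaded. In WT, Slc16a3 has its lowest level of these days at d4, and Ly6a and Prelp rise steeply from d2 to d4. The steep rise of Nanog, at 0.265 and 0.254 CPM at WT d4, comes after d4, and a smaller rise before d4 cannot be told at so low a level.

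The same 2 days in K36M cells share no library with the WT step. In K36M, 3390 genes (20.0%) were higher and 3035 (17.9%) lower at d4 than at d2. Genes called in both steps numbered 2981, which is 46.4% of the K36M calls and 54.6% of the WT calls, and 596 of them went in opposite directions (9.28% of the K36M calls and 10.9% of the WT calls). Across 10432 genes of at least 5 CPM, which are not independent of each other, Pearson's r of the 2 log2 changes was 0.526 and Spearman's rho 0.36, given as a description. The difference of the steps, K36M minus WT, was positive past the test for 1872 genes (11.1%) and negative for 2335 (13.8%).

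Cell division set the steps apart. Of 32 replication genes, 22 had a positive step difference and 0 a negative one, and of 25 mitosis genes 23 and 0. In K36M cells 8 replication genes rose and 7 fell (median log2 change -0.01), against 0 and 31 in WT cells, and 10 mitosis genes rose and 0 fell (0.27). Mki67 had 534 and 552 CPM at K36M d4 against 508 and 563 CPM at K36M d2, and its step difference was 0.68 (edgeR adjusted p = 0.0143). Sterol genes were alike, with 16 of 25 positive and 0 negative. Without 1 library at a time, the positive counts ran from 19 to 21 for replication, 20 to 23 for mitosis and 14 to 18 for sterol genes.

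Other lists had more negative than positive step differences. Negative ones were found for 16 of 28 mesenchymal transcription factors, 22 of 40 matrix proteins, 13 of 23 collagens, 18 of 30 Hox genes, 14 of 21 BMP and Id genes, 11 of 24 lysosome genes and 9 of 24 p53 genes, with 0, 6, 1, 0, 0, 0 and 2 positive. Twist1 had 6.64 and 6.20 CPM at K36M d4 against 24.2 and 25.7 CPM at K36M d2, a difference of -2.43 to its WT step. Cdkn1a had 448 and 425 CPM at K36M d4 against 764 and 741 CPM at K36M d2 (difference -1.25, edgeR adjusted p = 5.85e-07), so it fell in K36M cells and rose in WT cells.

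The lowest differences belonged to genes that rose in WT cells. Prelp had 0.738 and 0.798 CPM at K36M d4 against 1.56 and 1.14 CPM at K36M d2, a difference of -5.40 ± 0.33. Fmod (-4.99), Cp (-4.64), the interleukin-1 receptor antagonist Il1rn (-4.28) and the zinc finger gene Insm1 (-3.86) followed. Adamtsl3, of the fibrillin matrix, had 13.1 and 16.1 CPM at WT d4 against 5.68 and 6.64 CPM at WT d2 (log2 1.25), but 0 counts at K36M d4 and 62 at K36M d2, at least 21.4-fold lower there, so that its difference was at most -5.67.

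Of 35 epithelial junction genes, 17 had a positive step difference and 0 a negative one. Of 33 pluripotency genes, 6 were positive and 1 negative, and 3 to 5 were positive when 1 library was left out, the fewest without WT d4 replicate 1. Nanog had 52.2 and 55.7 CPM at K36M d4 against 0.184 and 0.325 CPM at K36M d2, a difference of 7.05 ± 0.75. Cldn7 (6.39), Crb3 (5.93, on 2 counts at WT d2), the neuronal gene Crmp1 (4.71), Bspry (4.62), the tight junction gene Cgn (4.47) and Epcam (2.38) were also higher in K36M. Pou5f1 rose in K36M cells, with 433 and 445 CPM at K36M d4 against 253 and 289 CPM at K36M d2 (difference 1.45). Slc16a3 had 25.5 and 30.3 CPM at K36M d4 against 75.6 and 73.2 CPM at K36M d2, a difference of 3.01. For Cdh1 the steps did not differ past the test (0.76 ± 0.46, edgeR adjusted p = 0.26): it had 698 and 672 CPM at K36M d4 against 8.56 and 7.32 CPM at K36M d2.

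**Figure D5:**
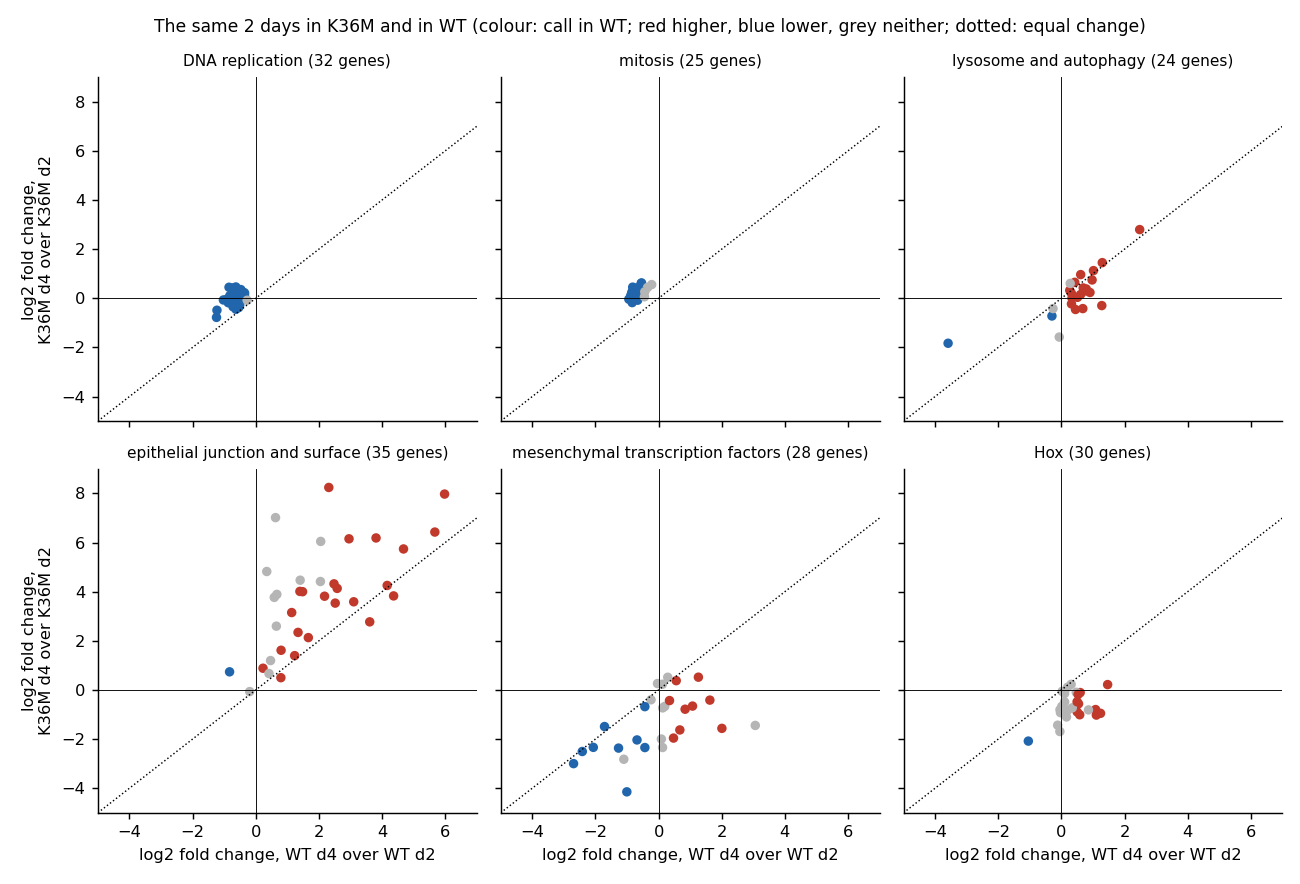
Log2 fold change of d4 over d2 in K36M (vertical) against WT (horizontal) for the tested members of 6 lists, 1 point per gene, coloured by the call in WT, with a dotted line of equal change. Replication and mitosis genes lie left of 0 in WT and around or above 0 in K36M, most epithelial genes lie above the line, and most mesenchymal factors and Hox genes below it.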

How the data were processed

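The authors deposited 1 table of raw counts per gene. Tools named per the submitters' processing notes are HTSeq 0.11.2, STAR 2.5.0 and edgeR, with mm9 as genome build; for strand, annotation and multiple matches the settings are not known from the labels. Per the labels' protocols, libraries were poly(A)-selected with a directional kit. Gene coordinates are from GENCODE vM1 on mm9. Columns were matched by name, with 0 left over.

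In R 4.3.3, edgeR 4.0.16 (TMM, filterByExpr with minimum count 10 and total 15, robust quasi-likelihood) was fitted to all 28 libraries in 14 groups, with 14 residual degrees of freedom. Two-sided p-values received Benjamini-Hochberg adjustment over 16932 genes (threshold 0.05). CPM uses TMM-scaled library sizes. Standard errors are the change divided by the square root of F. Intervals and floors cover counting error only. The methods were tested on simulated data.

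Members and lists were chosen with earlier results of these data known. Genes were named by a rule: the 14 largest rises and 14 largest falls, and the 6 highest and 6 lowest step differences, among called genes of at least 5 CPM whose libraries did not overlap, up to 4 members per list, and a fixed set. For step differences, overlap was judged on log2(CPM + 0.25). Some genes that the rule names are not reported here. Other members named were chosen after their values were seen. Of 922 listed symbols, 2 were not found. Alternatives were RLE scaling, DESeq2 1.42.0, no filter, fewer libraries, a replicate block and leaving out each library.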

Additional observations from a re-analysis of the deposited data

Results flagged for a closer look

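Genes whose change from d2 to d4 differed between K36M and WT cells, by the test of the difference of the 2 log2 changes in edgeR (adjusted p below 0.05), are given here for the genes named above as log2 differences, K36M step minus WT step. Positive differences were found for Nanog (7.05), Cldn7 (6.39), Crb3 (5.93), Crmp1 (4.71), Bspry (4.62), Cgn (4.47), Slc16a3 (3.01), Epcam (2.38), Pou5f1 (1.45) and Mki67 (0.68). Of these, Crmp1, Slc16a3, Pou5f1 and Mki67 fell in WT cells, the last 2 not past the test without WT d4 replicate 1. Negative differences were found for Adamtsl3 (at most -5.67, with 0 counts at K36M d4), Prelp (-5.40), Fmod (-4.99), Cp (-4.64), Il1rn (-4.28), Insm1 (-3.86), Twist1 (-2.43) and Cdkn1a (-1.25). All 8 of these rose in WT cells between d2 and d4. Among the positive differences, Nanog reached the 5 CPM of the naming rule only through its K36M d4 libraries. Crb3 rested on 11 counts at WT d4 and 2 at WT d2, and the WT change of Bspry was not called with the 4 WT d2 and d4 libraries alone.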

How the results depend on the processing

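The 5460 genes called between WT d4 and WT d2 became 5407 with RLE scaling, 5469 with DESeq2, 5470 with no filter on low counts, 6601 with the WT libraries alone and 6079 with the 4 libraries alone. Leaving out a single library gave 3821 to 4310 (2022 to 2350 higher, 1787 to 1960 lower). For WT d6 against WT d4, the 178 lower genes became 269 with DESeq2 and 269 with no filter; the cause was not tested. Leaving out a library there gave 379 to 489 calls (327 to 428 higher, 52 to 80 lower), and 849 to 1266 step differences between d6 and d4 (229 to 481 positive, 620 to 793 negative); these fits hold fewer samples. Of 202 named genes, 161 kept their call and direction in every alternative run and 41 did not.

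With the replicate number as a block, 5514 genes were called (2908 higher, 2606 lower). Deviations of same-numbered libraries from their group means had r = -0.0709 between WT d4 and WT d2 over 10961 genes, and -0.189 between WT d6 and WT d4. Over all pairs of groups r ran from -0.58 to 0.609, with a median of 0.019. Whether same-numbered libraries share more than a number cannot be told from these values and is not stated in the labels. With the WT d6 numbers crossed, an alternative chosen after seeing the data like those for K36M and WT d6, 794 genes differed between WT d6 and WT d4 (617 higher, 177 lower). Depth limits genes of a few counts, such as Grhl2, Crb3 and Lin28a, whose sizes are known only within wide intervals.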
